A study of Mus musculus with 12 samples.

Results

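miR-137 and miR-153 are neuronal microRNAs (miRNAs) described as regulators of synaptic vesicle release, and the data here are the counts of both arms of each hairpin in the mouse hippocampus. The members were chosen by name as the rows mmu-miR-137-3p, mmu-miR-137-5p, mmu-miR-153-3p and mmu-miR-153-5p, which are 4 of the 1908 named miRNAs in the deposited table. Below they are written without the prefix for mouse. The study sequenced small RNAs from the hippocampi of male C57BL/6 mice aged 3 months, 6 with a knockout of Gld2 (GLD2-/-, here GLD2KO) and 6 wild type (WT). The mice came from litters of heterozygous parents, so both genotypes share that background. Gld2 encodes a poly(A) polymerase that adds adenosine to RNA 3′ ends, and the study asks about its part in untemplated nucleotide addition to miRNAs. The table holds counts per miRNA, and neither the added nucleotides nor the mRNA of Gld2 was analysed here.

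A miRNA hairpin is cut by Drosha and Dicer into a duplex of a 5p and a 3p arm, of which Argonaute usually keeps a guide and the passenger is lost. The guide pairs with target mRNAs mainly through its seed, bases 2 to 8, and lowers their stability and translation. The guide arms of these hairpins are the 3p arms. In neurons miR-137-3p has been described to act on genes of vesicle priming and fusion, and miR-153-3p on genes of the SNARE fusion machinery, with early work in zebrafish.

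The mature sequences are shown because the seed sets which mRNAs each miRNA can pair with. They are given 5′ to 3′ from RefSeq (GRCm38.p6), with seed bases 2 to 8 in capitals.
miR-137-3p: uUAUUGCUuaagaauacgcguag
miR-137-5p: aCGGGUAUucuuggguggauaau
miR-153-3p: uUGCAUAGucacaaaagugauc
miR-153-5p: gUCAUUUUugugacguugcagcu
No member shared its seed with another member or with any of the 1679 mature mouse miRNA names in the RefSeq table. Bases 2 to 7 of miR-153-3p, the shorter match UGCAUA, were shared by miR-448-3p and miR-6335. Of these miR-6335 had 0 counts in all libraries, and miR-448-3p had 272 counts over all 12 libraries, 144 of them in GLD2KO replicate 6.

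The hairpins show how each pair of arms is placed, with both mature arms in capitals.
Mir137: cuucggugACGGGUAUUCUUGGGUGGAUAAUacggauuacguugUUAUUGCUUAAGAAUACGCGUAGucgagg
Mir153: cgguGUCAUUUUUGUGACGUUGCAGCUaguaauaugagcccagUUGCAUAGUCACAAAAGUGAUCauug
Mir137 lies on the plus strand at chr3:118433857-118433929 (GRCm38) and is 73 bases long. There 2 annotated transcripts of Gm26871, a noncoding gene on the same strand, have an exon that spans it. Mir153, 69 bases long, lies on the plus strand at chr12:117250817-117250885. It is within the protein-coding gene Ptprn2 on the same strand, over no annotated exon of that gene, and so in an intron. Ptprn2 encodes a membrane protein of dense-core vesicles.

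To show what the seeds can pair with, 3′ UTRs of vesicle genes named for these miRNAs were searched for the reverse complement of the guide seed, AGCAATA for miR-137-3p and CTATGCA for miR-153-3p. The search read the transcript strand only, used the longest annotated 3′ UTR of each gene, and called a match 8 letters long where an A followed. One window of 30 bases is printed per gene with the match in capitals.
Syt1 (chr10:108500317-108500346, minus strand): ctccaaatctactcttcttttaAGCAATAt
Cplx1 (chr5:108519497-108519526, minus strand): attccatggccagaggaaacacAGCAATAg
Snap25 (chr2:136782197-136782226, plus strand): ttctctgttgcttaatctagagCTATGCAc
Vamp2 (chr11:69090964-69090993, plus strand): caagtcccttcatttgcatctgCTATGCAA
Bsn (chr9:108098631-108098660, minus strand): cacaagtctcatctctaatgttCTATGCAA
Pclo (chr5:14861619-14861648, plus strand): ctaggttgtaactagaatcgctCTATGCAA
Syt1, the calcium sensor of vesicle fusion, and Cplx1, a complexin that binds the SNARE complex, each held 1 match of 7 letters to miR-137-3p. Nsf, the ATPase that takes SNARE complexes apart, held 0 in its 3′ UTR. Snap25, a SNARE protein, held 1 match of 7 letters to miR-153-3p, and Vamp2, the vesicle SNARE, held 1 of 8 letters. The active zone scaffolds Bsn and Pclo also held 1 match of 8 letters each, and the active zone gene Rims1 held 0. Over all 20717 genes with such a 3′ UTR, 9.72% held AGCAATA and 8.06% held CTATGCA. With the A that makes 8 letters, 4.12% held the match to miR-137-3p and 2.41% that to miR-153-3p. Among 3′ UTRs of like length the share with the 7 letters was 20.1% for Syt1, 11.04% for Cplx1 and 9.63% for Nsf. For miR-153-3p it was 6.74% for Snap25, 9.41% for Vamp2, 23.4% for Bsn, 26.4% for Pclo and 12.3% for Rims1. A match is a description of letters and not a measured site, and the mRNAs themselves were not analysed here.

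The libraries held between 2197915 and 3761106 counts, and 521 miRNAs had enough counts to test, these 4 among them. Markers of neurons were present at 132544 to 237249 CPM (counts relative to the library size) summed in GLD2KO and 94222 to 336978 CPM in WT, with miR-124-3p and miR-9-5p as the most abundant on average. The neuron marker miR-128-3p was at 1620 CPM in GLD2KO replicate 4, where miR-124-3p was at 76467 CPM and miR-9-5p at 107598 CPM. In the other GLD2KO libraries miR-128-3p lay at 11817 to 36033 CPM, and in WT at 6380 to 26735 CPM. The summed choroid plexus markers reached 15257 CPM in GLD2KO replicate 6, and the summed ranges of both genotypes overlapped for all 6 marker lists. Most of that choroid plexus sum was miR-204-5p, at 13357 CPM in that library. miR-211-5p of the same list averaged 11.2 CPM in GLD2KO and 25.8 CPM in WT, while the other tested markers of that list averaged higher in GLD2KO. Within the oligodendrocyte list, whose sum averaged 19132 CPM in GLD2KO and 18748 CPM in WT, miR-219a-2-3p did not overlap, at 1410 CPM on average in GLD2KO and 604 CPM in WT. The rest of that list overlapped and was slightly lower on average in GLD2KO. miR-219a-5p was at 1660 CPM in GLD2KO and 1872 CPM in WT, and miR-338-3p at 16061.4 CPM in GLD2KO and 16271.5 CPM in WT. Of the choroid plexus markers miR-1912-3p was at 0 counts in all libraries but GLD2KO replicate 6, where it had 1. Hippocampi are bulk tissue, so fewer cells of a type and less RNA per cell cannot be told apart. Values below are also CPM on TMM-scaled library sizes unless another scale is named.

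The levels were in the order miR-137-3p, miR-153-3p, miR-137-5p and miR-153-5p, with means over the 12 libraries of 1354, 814, 22.1 and 4.72 CPM. Because the members were chosen with results of these data known, the levels are a description. The order of the guide arms held in 10 of 12 libraries, and their ranges overlapped. Within libraries the log2 ratio of miR-137-3p over miR-153-3p averaged 0.66 (SD 1.07) in GLD2KO and 1.07 (SD 0.99) in WT. The lowest miR-153-3p value, 283 CPM, lay above the highest miR-137-5p value, 44.1 CPM. In all 12 libraries miR-137-5p lay above miR-153-5p, although its lowest value of 6.61 CPM was under the highest miR-153-5p value of 10.6 CPM. Ligation differs between sequences, so the order is one of counts, and the mature lengths of 22 or 23 bases are nearly equal.

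Together the 4 miRNAs took 0.193 ± 0.0408% of counts in GLD2KO and 0.241 ± 0.0488% in WT (SD, n = 6 each). The mir-137 hairpin gave 0.113 ± 0.0229% in GLD2KO and 0.157 ± 0.0337% in WT. The mir-153 hairpin gave 0.0797 ± 0.0418% in GLD2KO and 0.0840 ± 0.0449% in WT. These shares differed by about the spread between libraries or less, except that of mir-137, whose difference exceeded the SD of either genotype.

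miR-137-3p, the guide arm of its hairpin, was the most abundant member. In GLD2KO it lay at 621 CPM at the lowest, 1033 CPM at the median and 1505 CPM at the highest. In WT the lowest was 1086 CPM, the median 1580 CPM and the highest 2131 CPM. The genotypes overlapped, with 3 of 6 GLD2KO libraries above the lowest WT library, and GLD2KO replicate 2 was the lowest of all 12. By rank of counts it stood at place 59 to 100 in GLD2KO libraries and at 47 to 71 in WT libraries. The mean was 1106 ± 344 CPM in GLD2KO and 1602 ± 381 CPM in WT (SD, n = 6 each). The log2 fold change, GLD2KO minus WT, was -0.53 (SE 0.35, 95% confidence interval -1.26 to 0.19), which did not pass edgeR's quasi-likelihood test (Benjamini-Hochberg adjusted p = 0.978). Among the tested miRNAs 0 of 521 (0%) passed, and so did 0 of these 4. An unadjusted p under 0.05 was reached by 25 of the 521 (4.8%), and by 1 of the 4.

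**Figure D1:**
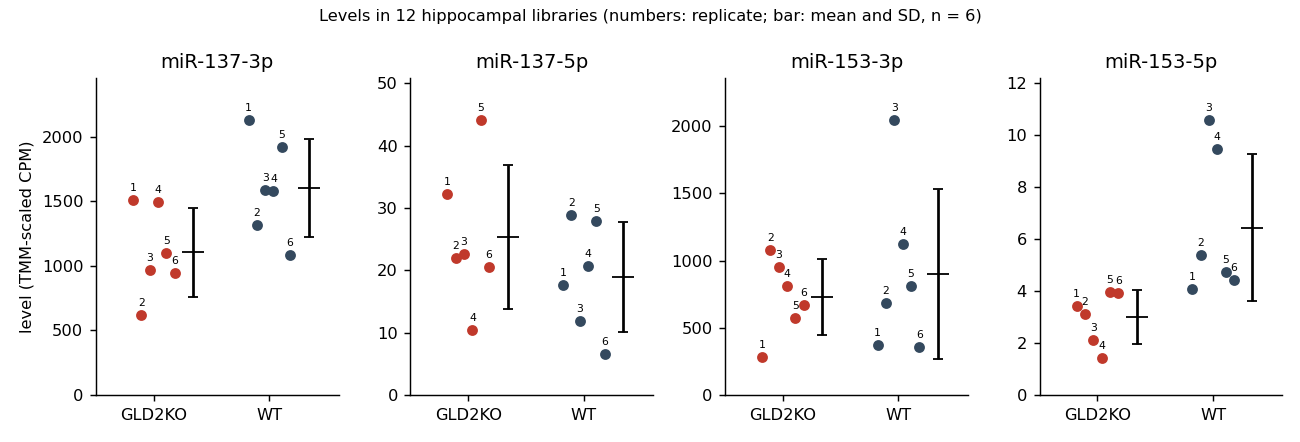
Level of each miRNA in every library, in TMM-scaled CPM on a linear axis from 0, for GLD2KO and WT. Points are libraries numbered by replicate and bars are the mean and SD (n = 6 each); the genotypes overlap for miR-137-3p, miR-137-5p and miR-153-3p, and not for miR-153-5p, whose highest GLD2KO value is 3.98 CPM and lowest WT value 4.09 CPM.

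The passenger miR-137-5p was lower in abundance than its guide in each library. Its lowest, median and highest levels were 10.4, 22.3 and 44.1 CPM in GLD2KO. In WT they were 6.61, 19.1 and 28.8 CPM. The genotypes overlapped over most of their ranges, and all 6 GLD2KO libraries lay above the lowest WT library, replicate 6. The log2 fold change was 0.42 (SE 0.44, interval -0.50 to 1.33, edgeR adjusted p = 0.978), opposite in sign to that of miR-137-3p. Opposite signs of the arms were common: they occurred in 74 of the 165 hairpins with both arms tested (44.8%).

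miR-153-3p, the guide arm of the Ptprn2 hairpin, lay at 283 CPM at the lowest, 739 CPM at the median and 1080 CPM at the highest in GLD2KO. In WT the lowest was 355 CPM, the median 749 CPM and the highest 2048 CPM. The medians nearly met, and WT replicate 3 stood far above the next WT library, replicate 4 at 1122 CPM. The mean was 729 ± 286 CPM in GLD2KO and 899 ± 632 CPM in WT (SD, n = 6 each). The log2 fold change was -0.30 (SE 0.46, interval -1.26 to 0.66, edgeR adjusted p = 0.978). Without WT replicate 3 it was 0.16, so 1 library set its sign.

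miR-153-5p, the passenger arm, was the member with the largest fold change and the fewest counts. Library totals ran from 2197915 to 2762035 counts in GLD2KO and from 2254812 to 3761106 in WT. Without scaling for depth, miR-153-5p had 3, 8.5 and 10 counts at the lowest, the median and the highest in GLD2KO, against 10, 18 and 33 counts in WT. As levels these were 1.42, 3.27 and 3.98 CPM in GLD2KO, and 4.09, 5.07 and 10.6 CPM in WT. All 6 GLD2KO libraries lay below all 6 WT libraries on this scale, with the nearest pair GLD2KO replicate 5 and WT replicate 1. Groups apart in this way were seen for 3 of the 521 tested miRNAs (0.576%), the others being miR-133b-3p, named here after its values were seen, and the oligodendrocyte marker miR-219a-2-3p, both higher in GLD2KO. The part of that marker's cell type in the result was not tested. The log2 fold change was -1.08 (SE 0.42, interval -1.96 to -0.21). The unadjusted edgeR p was 0.0180, the 11th lowest of 521, and the adjusted p of 0.815 did not pass. That unadjusted edgeR p rose to 0.0523 without WT replicate 3 and to 0.0557 without WT replicate 4. It was 0.0526 with replicate number as a block and 0.0625 without the filter on low counts. In the other settings that gave a value the unadjusted p stayed under 0.05.

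The separation of miR-153-5p depended on how libraries were scaled, which was looked at after seeing the data. On RLE-scaled library sizes the highest GLD2KO library was at 4.03 CPM and the lowest WT library at 4.14 CPM, still apart. On plain library totals the highest GLD2KO library was at 4.55 CPM and the lowest WT library at 3.05 CPM, and 3 GLD2KO libraries lay above that WT library. On that scale the groups were apart for 1 of 521 miRNAs (0.192%), which was not this one. In raw counts GLD2KO replicate 5 and WT replicate 1 were equal, at 10, and the groups were apart for 2 of 521 miRNAs (0.384%). The mean on plain totals was still lower in GLD2KO, at 3.15 CPM, than in WT, at 6.15 CPM, with an edgeR log2 fold change of -0.96 (adjusted p = 0.911).

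**Figure D2:**
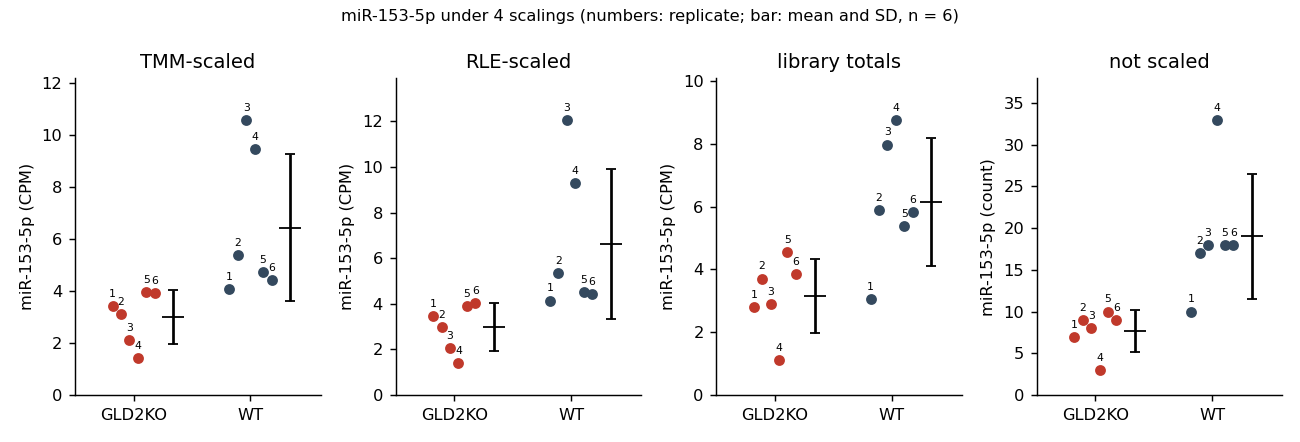
miR-153-5p in every library under 4 scalings, in CPM for TMM, RLE and library totals and in counts with no scaling, each axis from 0; points are libraries numbered by replicate and bars are the mean and SD (n = 6 each). GLD2KO lies wholly below WT with TMM and RLE, while on library totals WT replicate 1, at 3.05 CPM, lies under 3 GLD2KO libraries.

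Depth set how finely miR-153-5p could be read. In GLD2KO replicate 4 its 3 counts, of 2689827 in that library, had an exact 95% interval of 0.230 to 3.26 CPM on the library total. In WT replicate 4, the library with most, 33 counts gave 8.77 CPM on the same scale, with an interval of 6.04 to 12.3 CPM. These intervals cover counting error only. Its coefficient of variation between GLD2KO libraries was 34.1%, where counting at its mean of 7.67 counts alone gives 36.1%. In WT it was 43.9% against 22.9% from counting. For the guide arms counting was a small part of the spread: miR-137-3p varied by 31.1% in GLD2KO and 23.8% in WT, against 1.90% and 1.43% from counting. For miR-153-3p the variation was 39.2% in GLD2KO and 70.3% in WT, against 2.24% and 2.0% from counting. Which genotype varied more turned with the scaling, as its raw counts varied by 56.6% in GLD2KO and 47.5% in WT. The fitted biological coefficient of variation was 0.451 for miR-137-3p, the 24th lowest of 521, and 0.565 for miR-153-3p, with a median of 0.548 over all tested miRNAs.

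The share of each hairpin's counts that came from its 5p arm compares arms within a library and needs no scaling between libraries. For mir-137 the 5p arm took 0.693, 2.21 and 3.85% at the lowest, the median and the highest in GLD2KO, and 0.605, 1.06 and 2.14% in WT. GLD2KO replicate 4 lay among the lowest WT libraries, and 3 GLD2KO libraries lay above every WT library. The mean share was 2.41 ± 1.11% in GLD2KO and 1.17 ± 0.576% in WT (SD, n = 6 each). As log2 of 5p over 3p counts the mean was -5.51 in GLD2KO and -6.52 in WT, a difference of 1.01 (95% interval -0.14 to 2.17). It did not pass in limma over the 167 hairpins with enough counts in both arms (adjusted p = 0.922), of which 0 (0%) passed. The two-sided exact permutation p for this hairpin alone was 0.0628. With each library left out in turn the difference ran from 0.84, without GLD2KO replicate 5, to 1.34, without GLD2KO replicate 4 (limma adjusted p = 0.660 for the latter).

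For mir-153 the 5p share ran the other way. The 5p arm took 0.176, 0.436 and 1.20% at the lowest, the median and the highest in GLD2KO, and 0.515, 0.808 and 1.23% in WT. The genotypes overlapped, since GLD2KO replicate 1 at 1.20% was close to the highest WT library, while GLD2KO replicates 2, 3 and 4 lay below all WT libraries. These low shares rest on 9, 8 and 3 counts of the 5p arm. The difference in log2 of 5p over 3p was -0.87 (interval -2.05 to 0.31, limma adjusted p = 0.922), from -7.79 in GLD2KO and -6.91 in WT. The 5p arm averaged 7.67 counts in GLD2KO and 19 in WT, so mir-153 met the minimum mean of 10 counts per arm only through WT. A test of a hairpin kept in this way cannot decide on a genotype difference. The exact permutation p for this hairpin alone was 0.104. By mean ratio mir-153 was the 7th and mir-137 the 17th most tilted to the 3p arm of the 167 hairpins. An unadjusted limma p under 0.05 was reached by 2 hairpins (1.2%), neither of them mir-137 or mir-153.

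**Figure D3:**
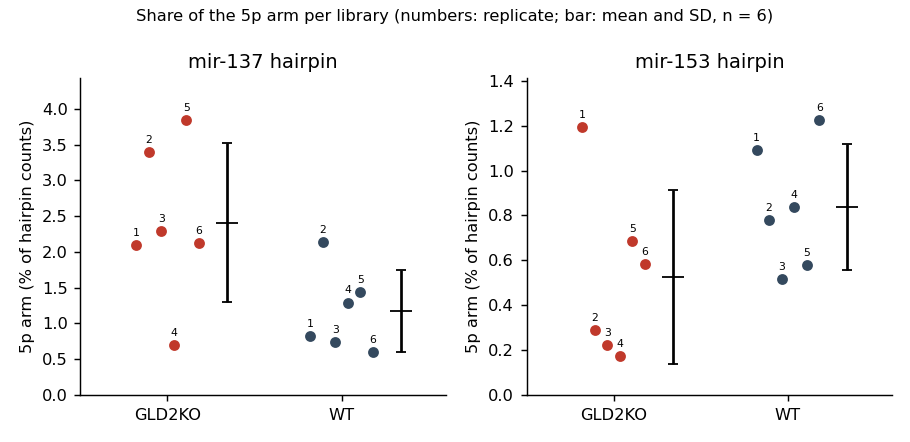
Share of hairpin counts from the 5p arm, in percent on an axis from 0, for mir-137 and mir-153 in GLD2KO and WT libraries. Points are libraries numbered by replicate and bars are the mean and SD (n = 6 each); the mir-137 mean is 2.41% in GLD2KO and 1.17% in WT, the mir-153 mean 0.525% in GLD2KO and 0.838% in WT, and the genotypes overlap for both.

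The ratio of the guide arms differed widely between libraries of either genotype. miR-137-3p was 5.33 times miR-153-3p in GLD2KO replicate 1 and 0.575 times in GLD2KO replicate 2. In WT this ratio ran from 0.774 in replicate 3 to 5.75 in replicate 1. Its median was 1.63 in GLD2KO and 2.14 in WT. Across the 12 libraries Pearson's r of log2 CPM was -0.15 and Spearman's rho 0.028, given as a description. Within GLD2KO r was -0.67 and within WT 0.13, over 6 libraries each. The arms of mir-137 had an r of -0.05, and those of mir-153 of 0.35, with 0.91 within WT and -0.42 within GLD2KO.

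**Figure D4:**
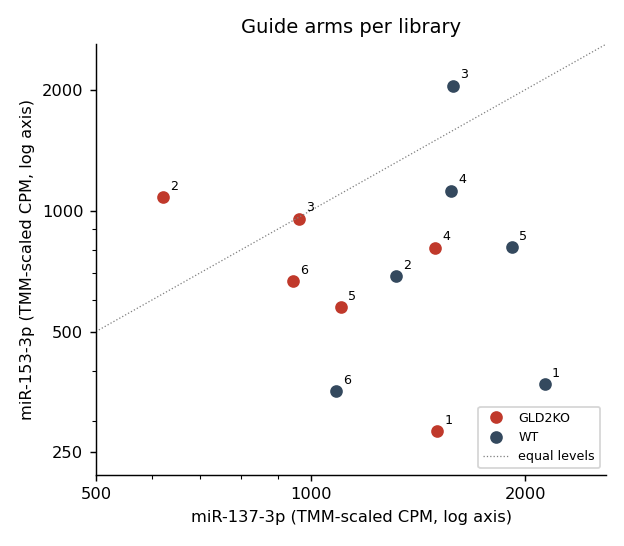
Level of miR-153-3p against miR-137-3p in each of the 12 libraries, both in TMM-scaled CPM on log axes; points are GLD2KO and WT libraries numbered by replicate, and the dotted line marks equal levels. GLD2KO replicate 2 and WT replicate 3 lie above the line, GLD2KO replicate 3 lies just under it, and Pearson's r of the log2 levels is -0.15.

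Among 224 other miRNAs that averaged 100 CPM or more, those whose level across libraries was most like that of miR-137-3p were miR-672-5p (r = 0.77), miR-382-3p (r = 0.73) and miR-421-3p (r = 0.67). Without the 2 libraries farthest from the median of miR-137-3p these values were 0.67, 0.72 and 0.64. For miR-421-3p r was 0.65 within GLD2KO and -0.01 within WT. Those most like miR-153-3p were miR-15a-5p (r = 0.75), miR-29b-3p (r = 0.71) and miR-487b-3p (r = 0.70), and without the 2 farthest libraries 0.40, 0.47 and 0.32. Spearman's rho over all 12 libraries was 0.58, 0.73 and 0.54 for these 3, and r of miR-29b-3p was 0.70 within GLD2KO and 0.95 within WT. The median r over the 224 was 0.05 for miR-137-3p and -0.02 for miR-153-3p, and all share the library scaling. The lowest r over the 224 was -0.64 for miR-137-3p and -0.79 for miR-153-3p, so values this far from 0 occurred in both directions. miR-153-3p was 162nd of 224 in likeness to miR-137-3p.

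Of 20 other miRNAs described at synapses, all tested, 9 were higher and 11 lower in GLD2KO, and 0 passed in either direction, as 0 (0%) did over all 521. The median log2 fold change was -0.02 over these 20, -0.42 over the 4 members and 0.12 over all tested miRNAs, of which 215 (41.3%) were lower in GLD2KO. The sign of the median over the 20 turned with the settings, and it was 0.11 on plain library totals. With each library left out in turn it ran from -0.08, without WT replicate 5, to 0.11, without WT replicate 3. It was above 0 in most of these fits. Of the 5 presynaptic ones 3 were higher and 2 lower. miR-27b-3p, reported to shape the presynaptic transcriptome, was at 1018 CPM in GLD2KO and 1397 CPM in WT, a log2 fold change of -0.46 (SE 0.40). miR-135a-5p, described to act on complexins, was at 1078 CPM in GLD2KO and 885 CPM in WT, a log2 fold change of 0.28 (SE 0.48). Of the 15 dendritic or postsynaptic ones 6 were higher and 9 lower. The abundant neuronal miR-124-3p was at 98413 CPM in GLD2KO and 130905 CPM in WT (log2 fold change -0.41, SE 0.42), and miR-9-5p at 62499 CPM in GLD2KO and 52072 CPM in WT (0.26, SE 0.46). The lowest p of the list was that of miR-329-3p, an activity-regulated miRNA, at 289 CPM in GLD2KO and 553 CPM in WT (log2 fold change -0.94, SE 0.50, edgeR adjusted p = 0.841).

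**Figure D5:**
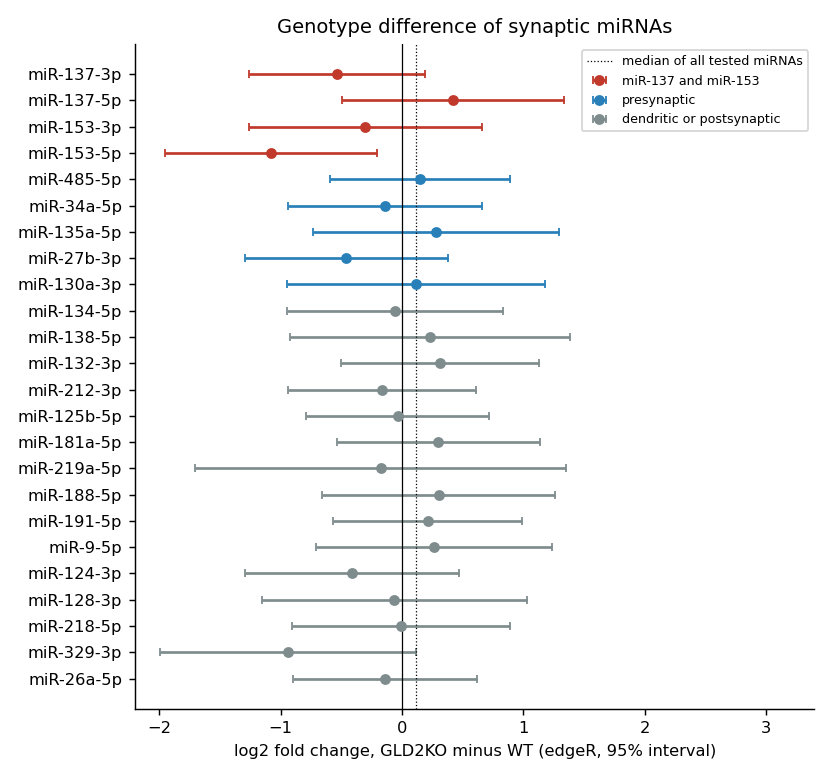
Log2 fold change, GLD2KO minus WT, with 95% intervals from edgeR (6 libraries each) for the 4 miR-137 and miR-153 arms and the 20 other synaptic miRNAs; the dotted line is the median of all tested miRNAs, 0.12. The interval of miR-153-5p, -1.96 to -0.21, is the only one drawn that excludes 0, and its adjusted p was 0.815.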

How the data were processed

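Small RNAs were sequenced from 12 hippocampi. Per the labels' protocols, TRIzol RNA was size-selected on a gel (the sources state the lower bound in 2 ways) and sequenced on an Illumina HiSeq. Per the submitters' processing notes, Trimmomatic 0.32, cutadapt 1.3 and GRCm38 were used; which aligner and miRNA annotation were used is not given in the sources used here. The authors deposited whole-number counts per mature miRNA, not normalized, and shared reads may affect near-identical miRNAs. The labels call the samples separate mice and name no batch. Size selection, ligation and 3′ trimming set which miRNAs are counted.

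One row without a miRNA name held 0 counts and was left out. The test of counts was edgeR 4.0.16 in R 4.3.3 (TMM, filterByExpr by genotype, glmQLFit, glmQLFTest), Benjamini-Hochberg adjusted over 521 miRNAs at 0.05. CPM used TMM-scaled library sizes, and log2 CPM a prior count of 2. The filter's minimum was 3.67 CPM on library totals, met by miR-153-5p in 3 GLD2KO and 5 WT libraries and by the other members in all 12. Arm ratios (pseudocount 0.5, each arm averaging 10 counts or more over all 12 libraries) were tested with limma 3.58.1, and single hairpins by exact permutation over 924 relabellings. Alternatives were DESeq2 1.42.0, limma-voom, other scalings, filters, pseudocounts and minimums, the replicate block and leaving out each library. The edgeR and limma tests were checked on simulated data, whose rates are not quoted. Sequences came from RefSeq (4 of 4 members matched), and gene and 3′ UTR positions from GENCODE M21, both GRCm38.

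The members, gene lists and tests were chosen with earlier results of these data known. Named miRNAs were the members, those sharing bases 2 to 7 with one, the 3 most alike to each guide arm, and the 2 most abundant and 2 lowest in p of each synaptic sublist; markers listed as miR-142a are named miR-142 in the table.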

Additional observations from a re-analysis of the deposited data

Results flagged for a closer look

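Of 12 groups of 6 libraries checked (4 levels and 2 arm ratios in each genotype), 1 had a library far from the rest, where chance gives about 1 in 20. In GLD2KO replicate 4 the log2 ratio of miR-137-5p over miR-137-3p was -7.13, against -5.53 to -4.64 in the other GLD2KO libraries. That library had 22 counts of miR-137-5p and 3151 of miR-137-3p.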

How the results depend on the processing

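The sign of each member's fold change and of both arm-ratio differences held under every alternative that gave a value, except for miR-153-3p. Each adjusted p of these stayed on the same side of the threshold, while the unadjusted p of miR-153-5p did not. miR-153-3p was at 0.16 without WT replicate 3, and its range over the libraries left out was -0.48 to 0.16. Over the same settings miR-137-3p ran from -0.64 to -0.41, miR-137-5p from 0.19 to 0.60 and miR-153-5p from -1.17 to -0.85. The arm-ratio difference ran from 0.84 to 1.34 for mir-137 and from -1.18 to -0.64 for mir-153. The mir-153 values cannot decide on a genotype difference, since its 5p arm met the minimum of 10 counts only through WT. Without the filter on low counts 7 of 1325 miRNAs passed in edgeR, against 0 of 521, and none of the 4 members was among them. DESeq2 and limma-voom called 0. An unadjusted p under 0.05 was reached by 45 of 1317 miRNAs in DESeq2 and by 23 of 521 in limma-voom. The number of GLD2KO libraries at or above the lowest WT library in miR-153-5p was 0 with TMM, 3 on library totals and 1 in raw counts. With a mean of at least 10 CPM miR-153-5p was not tested, and with at least 50 counts in both arms mir-153 was not. No pairing by replicate number was evident, though so few libraries cannot settle it. Correlations of same-numbered deviations ran from -0.23 to 0.24, and 1 of 6 GLD2KO libraries correlated best with its own number. With the replicate block the log2 fold change was -0.56 for miR-137-3p, 0.46 for miR-137-5p, -0.15 for miR-153-3p and -1.03 for miR-153-5p, with 0 calls. For miR-153-5p, counts of 3 to 33 per library limit the precision.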
